A study of Mus musculus with 10 samples.

Results

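Divergent promoters of coding genes are stretches of DNA from which a pair of protein-coding genes is read in opposite directions, head to head. The pairs were chosen from the annotation alone, so no measured value entered their choice. On chromosomes 1 to 19 of mm10, with the GENCODE M21 genes, a minus-strand gene and a plus-strand gene formed a pair when their 5′ ends lay at most 1000 bp apart and their bodies did not overlap. The rule found 734 pairs at 714 separate loci, since some genes stood in more than 1 pair. They held 1448 of the 20807 coding genes on these chromosomes (6.96%), and the other 19359 coding promoters served as the comparison.

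The cells were F123, a mouse embryonic stem cell line from an F1 cross of Mus musculus castaneus and S129/SvJae. They were grown with LIF on irradiated CF1 mouse embryonic fibroblasts and passaged on gelatin without feeders before harvest, with no other treatment. H3K4me3 was mapped by ChIP-seq and open chromatin by ATAC-seq, which marks where the Tn5 transposase can reach the DNA. Each assay had 2 replicates but only 1 deposited peak list, which holds 33487 H3K4me3 peaks or 179109 ATAC-seq peaks, so that no value below has a spread between replicates and no test over samples could be made. Of 5 genes that mark embryonic stem cells (Pou5f1, Sox2, Nanog, Esrrb and Zfp42), 4 had H3K4me3 at their start and 5 were open there. Among 5 fibroblast genes (Col1a1, Col1a2, Col3a1, Thy1 and Twist2), the counts were 4 and 4. The part that feeder cells may have in the peaks below was not tested.

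Many genes of housekeeping function, among them genes of DNA repair, mitochondria and RNA processing, lie in such pairs in mammals, where both genes share a short CpG-rich stretch. RNA polymerase II starts on both sides of the stretch, which is largely free of nucleosomes, and the first nucleosomes inside each gene carry H3K4me3, the mark of active and poised promoters. A pair of coding genes is thus a place where this mark can lie on both flanks of the same open region.

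The stretch between the starts was short. Its median length was 128 bp (95% interval 114 to 139), with quartiles of 66.25 and 240.0 bp and a range of 1 to 987 bp. The stretches of 10 pairs are printed to show the DNA on which the results turn. They run from the first base after the start of the minus-strand gene to the last base before the start of the plus-strand gene, 5′ to 3′ on the plus strand of mm10, and capitals mark each CpG. The first 2 belong to pairs with high H3K4me3 enrichment, the next 3 to pairs that are textbook examples of shared promoters, then follow 2 histone pairs, a pair that was open without H3K4me3 and 2 pairs with neither peak.
Idh1/Pikfyve, chr1:65186501-65186682: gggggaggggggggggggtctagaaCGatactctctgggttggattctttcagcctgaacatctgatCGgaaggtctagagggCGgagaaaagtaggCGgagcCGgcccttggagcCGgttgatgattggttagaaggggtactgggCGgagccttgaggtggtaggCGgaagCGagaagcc
Atp5h/Kctd2, chr11:115419963-115420127: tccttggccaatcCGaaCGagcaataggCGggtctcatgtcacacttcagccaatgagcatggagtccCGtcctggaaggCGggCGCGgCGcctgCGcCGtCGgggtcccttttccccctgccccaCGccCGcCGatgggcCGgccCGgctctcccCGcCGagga
Brca1/Nbr1, chr11:101551956-101552148: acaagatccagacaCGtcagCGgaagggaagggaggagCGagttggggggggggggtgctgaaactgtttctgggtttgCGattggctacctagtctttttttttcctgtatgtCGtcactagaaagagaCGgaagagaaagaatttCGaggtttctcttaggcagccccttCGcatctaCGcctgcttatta
Mrps12/Sars2, chr7:28741821-28741991: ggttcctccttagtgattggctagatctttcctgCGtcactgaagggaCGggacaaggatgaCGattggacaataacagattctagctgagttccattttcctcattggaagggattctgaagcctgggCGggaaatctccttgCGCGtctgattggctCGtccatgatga
Aimp2/Pms2, chr5:143909848-143909963: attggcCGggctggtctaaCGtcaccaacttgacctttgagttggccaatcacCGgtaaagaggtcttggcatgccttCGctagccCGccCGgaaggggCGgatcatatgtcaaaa
Hist1h2ae/Hist1h2bg, chr13:23571221-23571395: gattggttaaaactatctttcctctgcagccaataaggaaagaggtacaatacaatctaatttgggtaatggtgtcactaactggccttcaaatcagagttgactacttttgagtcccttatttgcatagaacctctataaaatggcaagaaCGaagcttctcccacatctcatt
Hist1h2ap/Hist1h2br, chr13:21833508-21833742: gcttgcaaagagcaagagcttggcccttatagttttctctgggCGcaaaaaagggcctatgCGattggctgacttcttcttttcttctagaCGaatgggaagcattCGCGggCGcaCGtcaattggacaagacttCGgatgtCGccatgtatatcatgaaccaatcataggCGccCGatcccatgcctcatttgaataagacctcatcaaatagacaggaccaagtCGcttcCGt
Aspa/Spata22, chr11:73329597-73329740: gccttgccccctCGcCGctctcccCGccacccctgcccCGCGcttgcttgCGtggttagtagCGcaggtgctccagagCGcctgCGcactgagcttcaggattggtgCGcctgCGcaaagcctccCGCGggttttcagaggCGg
Nmur1/Tex44, chr1:86426229-86426328: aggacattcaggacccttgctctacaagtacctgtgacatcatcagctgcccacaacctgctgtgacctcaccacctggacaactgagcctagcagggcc
Il11/Tmem190, chr7:4782860-4782936: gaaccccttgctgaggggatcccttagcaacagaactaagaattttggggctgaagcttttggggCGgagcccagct

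The printed stretches differ first in their CpG. That of Atp5h/Kctd2 holds 18 CpG in 165 bases. Those of Nmur1/Tex44 and Il11/Tmem190, which had no peak, hold 0 in 100 bases and 1 in 77 bases. Aspa/Spata22 goes against that order, with 14 CpG in 144 bases and no H3K4me3 peak, and Hist1h2ae/Hist1h2bg has 1 CpG in 175 bases and H3K4me3 peaks beside it. Matches to CCAAT, the core bound by NF-Y, stand at 4 places between Mrps12 and Sars2, at 3 places between Hist1h2ap and Hist1h2br and at 2 places between Hist1h2ae and Hist1h2bg. The last stretch also holds TATAAA, the core of the TATA box, on the plus strand at bases 137 to 142. Between Aimp2 and Pms2, CCGGAAG, the core bound by ETS factors, occupies bases 90 to 96. A match is a description of the letters and was not shown to be bound.

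H3K4me3 and open chromatin were found at nearly every divergent pair. An H3K4me3 peak overlapped the span between the starts plus 1 Kb on each side at 713 of 734 pairs (97.1%, 95% Wilson interval 95.7 to 98.1), beside a background of 66.4% of all coding promoters with a peak within 1 Kb of the 5′ end. ATAC-seq peaks were found at 719 pairs (98.0%, 96.7 to 98.8) against a background of 72.2%, and both kinds at 711 pairs (96.9%) against 65.6%. Intervals in this text cover counting error only, since neighbouring pairs and the genes of a pair share sequence and peaks. Of the rest, 13 pairs had neither peak, 8 had an ATAC-seq peak only and 2 had an H3K4me3 peak only.

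Counted by gene, 1406 of 1448 divergent genes had an H3K4me3 peak within 1 Kb (97.1%, 96.1 to 97.9), against 12400 of 19359 other coding promoters (64.1%, 63.4 to 64.7). The difference was 33.0 percentage points (95% Newcombe interval 31.8 to 34.1). For ATAC-seq the shares were 97.9% (97.0 to 98.5) and 70.2% (69.6 to 70.9). Promoters with other head-to-head partners lay near the divergent pairs. Where the 5′ ends of 2 coding genes crossed, so that their bodies overlapped and the pair was not a member, 97.4% of 870 genes (96.1 to 98.2) had H3K4me3. Where a noncoding gene started within 1000 bp upstream on the other strand, 89.0% of 674 genes (86.4 to 91.2) had it, and of the remaining 17815 promoters 61.5% did.

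Most of that difference moved with CpG content. CpG observed over expected, computed on the 300 bases from 250 before to 50 after the 5′ end, had a median of 0.854 (95% interval 0.842 to 0.868) at divergent genes and 0.496 (0.487 to 0.507) at other coding promoters. Values of 0.75 or more were found at 1025 divergent genes and 5557 others. In the class from 0.75 to 1, H3K4me3 was found at 99.0% of 718 divergent genes (98.0 to 99.5) and 98.9% of 4332 others (98.6 to 99.2), whose intervals overlap. In the class under 0.25 it was found at 22 of 42 divergent genes (52.4%, 37.7 to 66.6) and at 14.8% of 5935 others (13.9 to 15.7), whose intervals do not. The window of a divergent gene takes in the start of its partner, so such a peak need not lie over the gene's own start. When the other promoters were weighted to the CpG classes of the divergent genes, their share rose to 93.9% and the difference fell to 3.22 percentage points. The same weighting left 2.33 points for ATAC-seq.

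**Figure D1:**
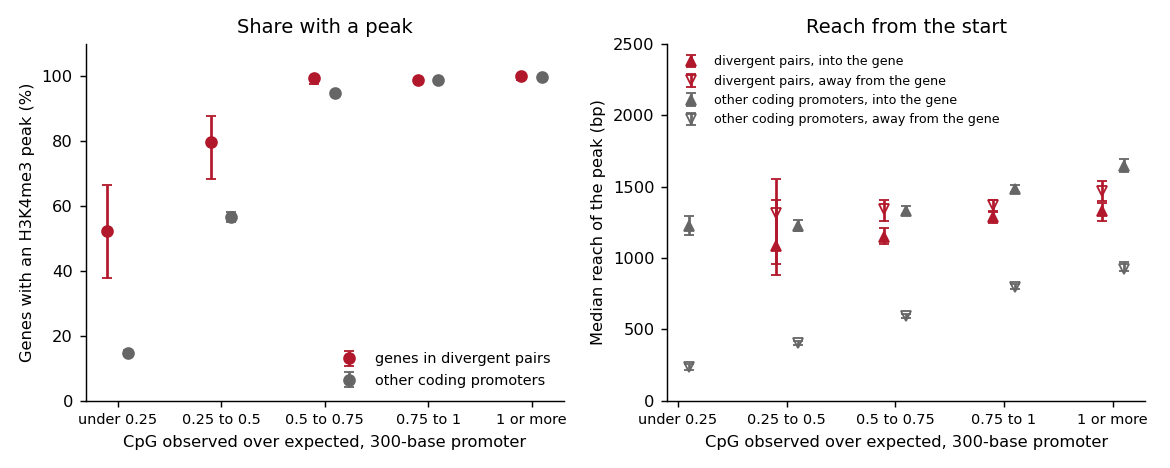
Left, share of genes (%) with H3K4me3 up to 1 Kb from the 5′ end by class of CpG observed over expected, for genes in divergent pairs and other coding promoters, with 95% Wilson intervals as bars. Right, median reach of the H3K4me3 peak over the 5′ end (bp) into the gene (filled) and away from it (open), with 95% order-statistic intervals; the class under 0.25 held too few divergent genes with a peak over the start to be drawn. The shares meet from 0.75 up, where the reach away from the gene stays longer at divergent genes.

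The H3K4me3 peaks at the pairs were strong and broad. The strongest peak of a pair had a median fold enrichment, the ratio of its signal to the background of the peak caller, of 36.1 (95% order-statistic interval 35.5 to 36.9), which lies above 85.4% of the autosomal peaks. Its median width was 2647 bp (2574 to 2708), above 86.3% of them. Counted by gene, the medians were 36.1 and 2647 bp, against 30.1 (29.8 to 30.4) and 2108 bp (2088 to 2127) at other coding promoters with a peak. Between CpG of 0.75 and 1 these gaps were smaller, with 36.2 against 34.7 in fold enrichment and 2657 against 2339 bp in width. The pairs held 755 of the 32496 autosomal H3K4me3 peaks (2.32%) and 73 of the 1000 with the highest fold enrichment (7.30%). They held 895 of 172958 ATAC-seq peaks (0.517%).

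The highest fold enrichment of any pair was that of Sart3/Iscu, a splicing factor and the scaffold on which iron-sulfur clusters are built. It was 84.5, beside 88.7 for the highest autosomal peak. Idh1/Pikfyve, an isocitrate dehydrogenase and a lipid kinase, had 79.8. Atp5h/Kctd2, of which the first encodes a subunit of the ATP synthase, had 75.7. S100pbp/Yars, of which the second encodes the tyrosyl-tRNA synthetase, had 72.4 and Dido1/Gid8 67.6. At Idh1/Pikfyve 1 peak of 2708 bp ran 1016 bp into Idh1 and 1508 bp into Pikfyve. The ATAC-seq peak in its middle was 966 bp wide and covered the whole printed stretch.

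The widest strongest peaks lay at Nek8/Tlcd1 (8962 bp) and at Hnrnpa2b1/Cbx3 (8334 bp). Hnrnpa2b1 encodes an RNA-binding protein and Cbx3 a heterochromatin protein of the HP1 family. Hnrnpdl/Enoph1 (6851 bp), Tshz1/Zadh2 (6585 bp) and Rnf151/Rps2 (6335 bp) followed. The peak at Nek8/Tlcd1 reached 757 bp into Nek8 and 8168 bp across Tlcd1, and its summit lay 6670 bp from the nearest of the 2 starts. The narrowest were those of Nisch/Sema3g (321 bp, fold enrichment 3.31), Hist1h2ba/Hist1h2aa (334 bp, 3.72), Patl2/Terb2 (446 bp, 4.07), Stap2/Mpnd (687 bp, 4.51) and Odf3l1/Cspg4 (714 bp, 6.55). Patl2 and Terb2 act in oocytes and in meiosis. Hist1h2ba and Hist1h2aa are histone genes of the testis.

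At 642 of the 734 pairs (87.5%, 84.9 to 89.7) 1 H3K4me3 peak covered both starts. The others had separate peaks over each start (20 pairs), a peak over 1 start only (39 pairs), a peak in the window but over no start (12 pairs) or none (21 pairs). ATAC-seq peaks touched the span between the starts at 714 pairs (97.3%, 95.8 to 98.2), and at 658 pairs (89.6%, 87.2 to 91.6) 1 ATAC-seq peak covered both starts. The median ATAC-seq peak on the span was 973.5 bp wide (948 to 993), so it reached beyond the starts into both genes, and its midpoint lay a median of 105 bp from the middle of the pair.

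**Figure D2:**
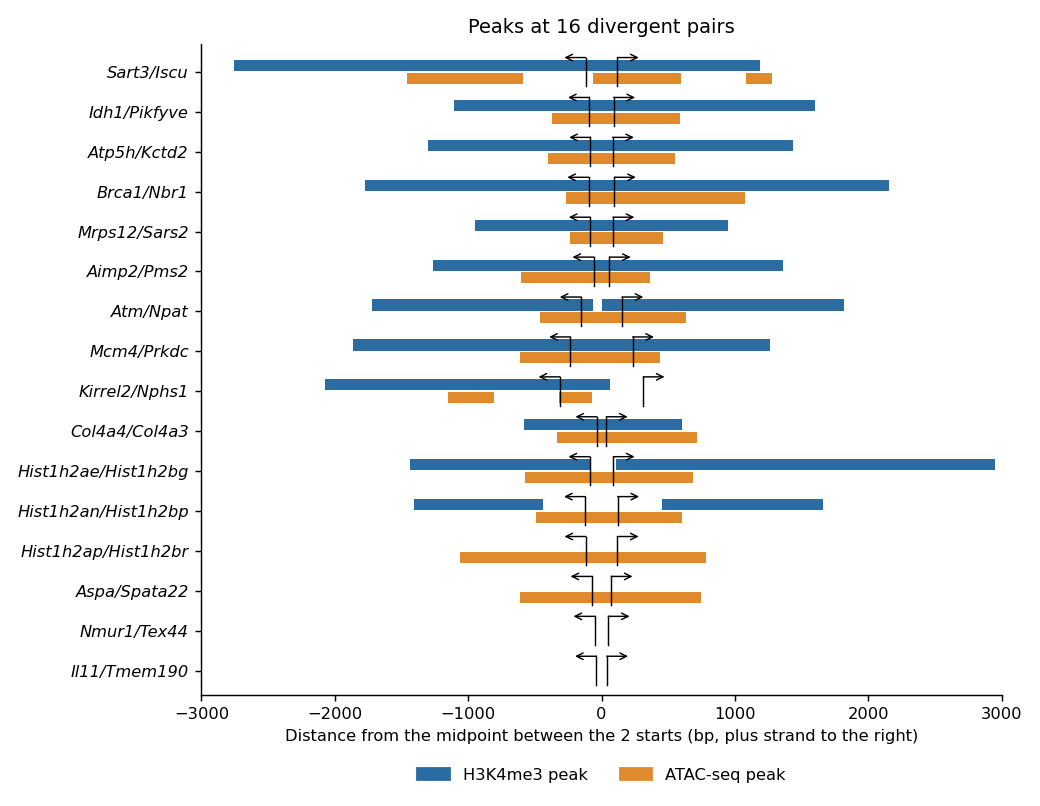
Peaks at 16 divergent pairs, drawn to scale by distance from the midpoint between the starts (bp). Black arrows mark the starts and directions of the genes, blue bars H3K4me3 peaks and orange bars ATAC-seq peaks. At Idh1/Pikfyve 1 H3K4me3 peak lies over both starts, at Atm/Npat a peak lies over each start, at Hist1h2an/Hist1h2bp 2 peaks leave both starts free, and at Nmur1/Tex44 no peak is found.

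Among 15 pairs often given as examples of shared promoters, 7 were members. Brca1/Nbr1, a gene of homologous recombination and an autophagy receptor, lay 194 bp apart under 1 peak of 3932 bp with a fold enrichment of 33.2. Mrps12/Sars2, a mitochondrial ribosomal protein and the mitochondrial seryl-tRNA synthetase, had 1 peak of 1900 bp that reached 864 and 863 bp into the genes. Aimp2/Pms2, of which Pms2 acts in mismatch repair, had 1 peak of 2626 bp with a fold enrichment of 23.8. Mcm4/Prkdc, a subunit of the replicative helicase and the catalytic subunit of the DNA-dependent protein kinase, stood 466 bp apart and still shared 1 peak of 3128 bp. These 4 pairs each had 1 peak over both starts and 1 ATAC-seq peak over the whole span.

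Among the other 3 members of the examples, Col4a4/Col4a3 had that form too and Atm/Npat and Kirrel2/Nphs1 did not. At Atm/Npat, the kinase of the DNA damage response and the coactivator of histone genes, the starts lay 307 bp apart and each had a peak of its own, 1661 bp wide with a fold enrichment of 26.4 over Atm and 1816 bp with 35.8 over Npat. Col4a4/Col4a3, chains of basement membrane collagen, had 1 peak of 1189 bp over both starts with a fold enrichment of 13.1, below the median of 36.1 over all pairs. Kirrel2/Nphs1, which encode proteins of the kidney filter, had a peak over the Kirrel2 start alone (fold enrichment 11.7), and it ended 247 bp before the start of Nphs1. Of the remaining examples 7 were no members because their starts cross by 21 to 271 bp, among them Hspd1/Hspe1, and Ung/Alkbh2 lay 2168 bp apart.

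The distance between the starts moved with the layout of both marks. With starts at most 100 bp apart, 1 H3K4me3 peak covered both at 95.1% of 306 pairs (92.1 to 97.0), and the share was 85.1% of 296 pairs above that up to 300 bp, 75.9% of 83 pairs up to 600 bp and 73.5% of 49 pairs (59.7 to 83.8) up to 1000 bp. The intervals of the last 3 classes overlap in part. A single ATAC-seq peak over both starts was found at 97.1%, 94.6%, 80.7% and 28.6% (17.8 to 42.4) of the pairs in the same order. In the widest class 16 of 49 pairs had a separate ATAC-seq peak over each start and 16 a peak over 1 start only, while in the narrowest class 297 of 306 had 1 peak over both. At pairs over 600 bp apart, the shares of the 2 marks come from the same 49 pairs, so their separate intervals do not compare the marks. In that class the median ATAC-seq peak on the span was 877.5 bp wide and the median strongest H3K4me3 peak 2730 bp. A peak of the first width can seldom cover both starts.

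**Figure D3:**
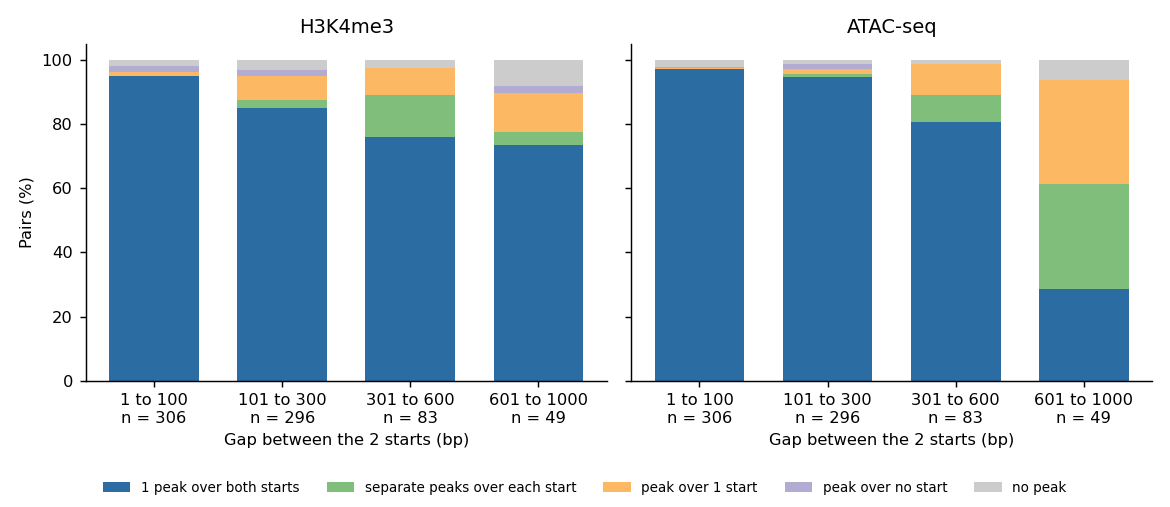
Share of pairs (%) with each layout of H3K4me3 peaks (left) and ATAC-seq peaks (right), by the gap between the starts (bp), with the number of pairs under each bar. The share with 1 ATAC-seq peak over both starts is 28.6% over 600 bp, where 73.5% have 1 H3K4me3 peak over both.

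The closest starts were those of Bag4/Lsm1 and Slc7a6os/Prmt7, 1 bp apart, and of Dhrs1/Nop9, 3 bp apart, Bag5/Apopt1, 4 bp apart, and Wdr54/1700003E16Rik, 7 bp apart. Bag4 and Bag5 encode co-chaperones of HSP70, and Lsm1 a factor of mRNA decay. Each of these 5 had 1 H3K4me3 peak over both starts, with fold enrichments of 30.4 to 36.1 in 4 of them and 13.7 at Wdr54/1700003E16Rik. Near the largest gap, Btf3l4/Txndc12 (987 bp), Asphd1/Sez6l2 (981 bp), Zfyve26/Rad51b (978 bp) and Smim7/Tmem38a (967 bp) also had 1 peak over both starts, with fold enrichments between 20.0 and 56.0. Just outside the limit, Gpr108/Trip10 (1009 bp), Sgsm2/Tsr1 (1011 bp), Dirc2/Hspbap1 (1019 bp), Ppt2/Prrt1 (1023 bp) and Psd/Fbxl15 (1028 bp) did as well, with 23.7 to 46.6. Farther out this did not hold throughout, in pairs named after their values were seen. Acsbg2/1700061G19Rik (1030 bp), Ushbp1/Babam1 (1059 bp) and Btbd19/Tctex1d4 (1069 bp) had no such peak, while Rpl7/Rdh10 (1112 bp) had 1.

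The peaks reached into both genes about equally over all pairs. Over the 642 pairs with 1 peak over both starts, it reached a median of 1258 bp (1227 to 1300) into the minus-strand gene and 1234 bp (1195 to 1273) into the plus-strand gene. Away from a divergent gene, that is over the gap and into its partner, the median reach was 1383 bp (1351 to 1410), against 652 bp (642 to 664) upstream of other coding starts. Into the gene it was shorter at divergent genes, 1250 bp (1225 to 1276) against 1412 bp (1399 to 1427). Noncoding partners gave 957 bp upstream and 1524 bp into the gene, and overlapping coding partners 1090 and 1455 bp. Within each class of CpG from 0.5 up, divergent genes again had the longer reach away from the gene and the shorter reach into it. Between 0.75 and 1 they had 1371 bp away from the gene and 1289 bp (1245 to 1325) into it, and others 798 bp and 1484 bp (1466 to 1511). The reach into the gene was the longer of the 2 at 42.9% of divergent genes (40.2 to 45.5) and at 88.0% of the others (87.4 to 88.6). Under a shared peak, the reach away from a gene is the gap plus the reach into its partner. At most 1 gene of such a pair can then have the longer reach into the gene. The share at divergent genes could therefore not be high, and its contrast with the others is largely set by this geometry.

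**Figure D4:**
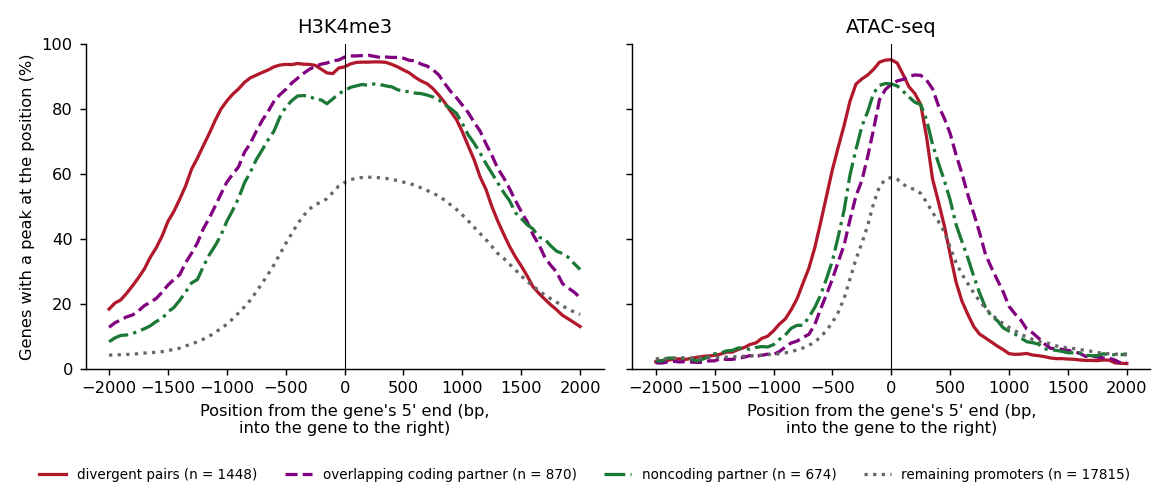
Share of genes (%) with an H3K4me3 peak (left) or ATAC-seq peak (right) at each position from the gene's 5′ end (bp, steps of 50, into the gene to the right), for divergent genes and the 3 kinds of other coding promoters. At 1000 bp upstream the H3K4me3 share is 82.5% at divergent genes and 13.7% at the remaining promoters, and at 1500 bp into the gene it is 31.6% and 28.6%.

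Position by position, H3K4me3 lay 1000 bp upstream of 82.5% of divergent genes, 57.5% of genes with an overlapping coding partner, 45.4% of those with a noncoding partner and 13.7% of the remaining promoters. At 500 bp into the gene the divergent genes had ATAC-seq peaks at 35.2% and H3K4me3 at 92.0%. The summit of the strongest H3K4me3 peak, its highest point, was rarely found between the starts: it lay there at 14 of 713 pairs (1.96%, 1.17 to 3.27). It lay on the side of the minus-strand gene at 365 (51.2%) and on the side of the plus-strand gene at 334 (46.8%). Whether it lay before the far end of the gene was not checked. The span leaves little room for a summit, with a median of 128 bp. The share between the starts was 0.0%, 1.05%, 7.41% and 11.1% from the narrowest to the widest class of gap. The summit stood a median of 229 bp (222 to 235) from its nearest start, on the side of that gene. At other coding promoters the summit lay a median of 223 bp (220 to 225) into the gene, measured from the gene's own start and not the nearest of 2. Measured from its own start, the summit lay upstream at 50.8% of divergent genes and 10.8% of other coding promoters with a peak. The genes of a pair mostly share 1 strongest peak, and a summit past the start of 1 gene then lies upstream of the other. The share at divergent genes is thus largely set by counting each summit for both genes.

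Single pairs were more one-sided than these medians. The longer side of the shared peak reached a median of 1485.5 bp and the shorter 1063 bp, and at 118 of 642 pairs (18.4%) the longer was at least 2 times the shorter. It lay over the minus-strand gene at 339 pairs and over the plus-strand gene at 303. The longer side was that with more CpG in the first 1 Kb of the gene at 474 of the 637 pairs that differed in both (74.4%, 70.9 to 77.7). Across the 642 pairs the difference in reach and the difference in CpG had a Spearman rho of 0.632 and a Pearson r of 0.559, as a description of points from the same peak list and genome. The reaches into the 2 genes of a pair had a rho of 0.151. The most one-sided pairs, chosen after their values were seen, were Phtf2/Tmem60, with 2152 bp into Phtf2, 31 bp into Tmem60 and 114 and 58 CpG in the first 1 Kb, and Nup98/Pgap2, with 1987 and 56 bp and 62 and 34 CpG. At both, a further H3K4me3 peak began on the short side, after a break of 149 bp at Tmem60 and 218 bp at Pgap2. Their short reach is thus where 1 peak ended, and H3K4me3 went on beyond it.

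**Figure D5:**
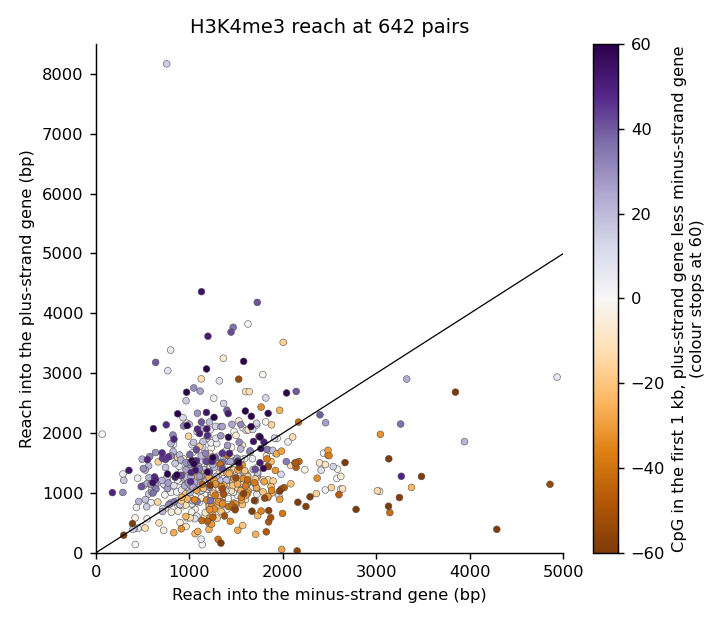
Reach of the shared H3K4me3 peak into the minus-strand gene (horizontal, bp) and the plus-strand gene (vertical, bp) at 642 pairs, coloured by the CpG count in the first 1 Kb of the plus-strand gene less that of the minus-strand gene. The line marks equal reach. Purple points (more CpG in the plus-strand gene) lie mostly above it and orange points mostly below, and the point at 8168 bp is Nek8/Tlcd1.

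Where the H3K4me3 of a pair was broken, open chromatin lay in most of the breaks. Between adjacent H3K4me3 peaks there were 66 breaks at 64 pairs. Of these 26 ran across 1 start, 21 lay between the starts and 7 spanned both starts, and each of these 54 held an ATAC-seq peak. That is near the share over all 734 pairs, broken or not, of which 97.3% had an ATAC-seq peak on the span. The other 12 lay inside a gene, and 9 of them held one. Counted by gene, 96.1% of 127 breaks at divergent genes held an ATAC-seq peak, against 79.4% of 797 breaks within 1 Kb of other coding starts. The breaks differed in place, since 29.9% of the first and 14.3% of the second lay over a start. Of the breaks over a start, 38 of 38 at divergent genes and 104 of 114 at the others held an ATAC-seq peak. The median break between the starts was 105 bp long and the median break over both was 274 bp.

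The 7 pairs with a break over both starts were S100pbp/Yars, Casc1/Etfrf1, Syngr4/Tmem143, Cdca2/Kctd9 and 3 histone pairs, named here after their values were seen. At S100pbp/Yars the starts lay 33 bp apart in a break of 86 bp, between a peak of 1567 bp in S100pbp (fold enrichment 72.4) and a peak of 1747 bp in Yars (46.2), and the ATAC-seq peak across it was 1433 bp wide. Cdca2/Kctd9, of which Cdca2 acts in mitosis, had 41.9 and 41.5 on its sides of a break of 164 bp. Syngr4/Tmem143 was unequal, with 3.89 in Syngr4 and 24.2 in Tmem143, and so was Casc1/Etfrf1 with 9.33 and 26.1. Separate peaks over each start occurred from 172 bp apart at Ccdc151/Prkcsh, and next at Hspa14/Cdnf (216 bp), Tecr/Dnajb1 (222 bp) and Nop14/Grk4 (231 bp). Hspa14 and Dnajb1 encode heat shock chaperones.

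Replication-dependent histone genes stood apart from the other pairs in layout. These genes supply the bulk of histones in S phase and often lie head to head, an H2A gene beside an H2B gene. Of 68 such genes 27 (39.7%) were in pairs, of which 13 pairs joined 2 histone genes, 12 of them on chromosome 13. ATAC-seq peaks lay on the span at 13 of 13, with widths of 699 to 1933 bp and a median of 1335 bp. H3K4me3 was found at 11 of 13, but 1 peak covered both starts at only 2, Hist2h2ac/Hist2h2be and Hist1h2bh/Hist1h3f, beside 642 of all 734 pairs. At 9 of 13 there were 2 or more H3K4me3 peaks, and the median share of the span under H3K4me3 was 26.1%. Fold enrichments ran from 3.72 to 37.9 with a median of 18.1, and histone genes outside pairs had a median of 18.7. CCAAT was found on the span of 13 of 13 pairs and TATAAA on 8, beside 38.7% and 3.95% of the spans of all pairs, which were shorter (median 128 bp against 268 bp).

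Several histone pairs, here chosen after their values were seen, had long breaks. At Hist1h2an/Hist1h2bp the starts lay 243 bp apart in a break of 891 bp, with H3K4me3 from 321 bp inside Hist1h2an and from 328 bp inside Hist1h2bp, and an ATAC-seq peak of 1095 bp between. Hist1h2bl/Hist1h2ai and Hist1h2ag/Hist1h2bj had breaks of 751 and 885 bp. Hist1h2ae/Hist1h2bg, whose stretch is printed above, had H3K4me3 that ended 5 bp beyond the start of Hist1h2ae and began again 24 bp inside Hist1h2bg. Hist1h2ap/Hist1h2br and Hist1h2bq/Hist1h2ao were open, with ATAC-seq peaks of 1844 and 1694 bp, and had no H3K4me3 peak. Histone genes have near-identical copies, and how reads that match several copies were counted for H3K4me3 is not given in the sources used here, so the values of single histone pairs are uncertain.

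Genes of DNA replication and repair were often found in pairs. Of 137 such genes 40 (29.2%) were in pairs, against 6.96% of all coding genes. All 40 of their pairs had both marks, near the 96.9% of all pairs that did, and 37 had 1 peak over both starts (87.5% of all pairs). In them the median fold enrichment was 36.9 beside 36.1 over all pairs. Orc3/Rars2, a subunit of the origin recognition complex and the mitochondrial arginyl-tRNA synthetase, lay 13 bp apart under a peak of 3178 bp. Lig4/Abhd13, of which Lig4 joins ends in nonhomologous end joining, lay 21 bp apart with a fold enrichment of 38.3. Emc3/Fancd2, of which Fancd2 acts in the Fanconi anemia pathway, had 34.0, and Polk/Col4a3bp, of which Polk is a translesion polymerase, had 41.1.

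Mitochondrial genes gave 45 of 216 (20.8%) in 44 pairs, and 44 had both marks, again near the 96.9% of all pairs. Tatdn1/Ndufb9, with a subunit of complex I, had a fold enrichment of 36.6, and Mrpl54/Apba3, with a protein of the mitochondrial ribosome, 28.7. RNA processing genes gave 29 of 143 (20.3%), with a median of 42.1 and both marks at 29 of 29 pairs, beside the same 96.9%. Srsf11/Lrrc40, with a splicing factor, had 45.6 and Zdhhc3/Exosc7, with a subunit of the RNA exosome, 40.8. Genes listed by name under cilium and centrosome gave 29 of 165 (17.6%) and a median of 33.7. That list takes in Wdr and Kif names, whose part in the cilium or centrosome was not checked. Genes of proteasome and ubiquitin gave 19 of 169 (11.2%) and 42.3. Dnajc2/Psmc2, with an ATPase of the proteasome, had 49.0 and a peak of 4460 bp.

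Cytosolic ribosomal proteins had the widest peaks among the lists with 3 or more pairs. The 9 pairs, from 87 genes (10.3%), had a median width of 4107 bp beside 2647 bp over all pairs, and a median fold enrichment of 44.2, while ribosomal protein genes outside pairs had 3736 bp and 46.1. Rps28/Ndufa7 had a peak of 3904 bp that reached 2391 bp into Rps28 and 1502 bp into Ndufa7. Rps27/Rab13 reached 3034 bp into Rps27 and 1028 bp into Rab13, and Rpl9/Lias 3375 and 1091 bp. In these 3 pairs the longer side was that of the ribosomal protein gene, while Polr3a/Rps24, chosen after its values were seen, had 1137 bp into Polr3a and 135 bp into Rps24. Rnf151/Rps2 was the exception of the list, with no ATAC-seq peak over the span plus 1 Kb and an H3K4me3 peak of 6335 bp that began 283 bp inside Rps2. The summit of that peak lay 1588 bp inside Rps2, and CpG observed over expected at the annotated Rps2 start was 0.148. Whether Rps2 is read from another start was not tested.

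Regulators of development were few among the pairs. Of 164 developmental transcription factors 3 (1.83%) were members, and their partners were not in that list. They were Rhno1/Foxm1 (fold enrichment 34.6), Sox6/1110004F10Rik (12.3) and Foxa3/Sympk (50.3). At Foxa3/Sympk the summit lay 281 bp inside Sympk, which encodes a scaffold of mRNA 3′ end processing, and at Sox6/1110004F10Rik 816 bp inside the partner of Sox6. None of 20 pluripotency genes was in a pair, and 18 of the 20 had H3K4me3, beside 66.4% of all coding promoters. Of 1457 olfactory and vomeronasal receptor genes 1 was a member, Vmn1r4, whose start lay 83 bp from that of Nt5c3 under a peak with a fold enrichment of 43.4 and a summit 250 bp inside Nt5c3. Of the 1456 other receptor genes 1 had an H3K4me3 peak. Among zinc finger genes 20 of 385 (5.19%) were members, in 18 pairs, and 17 of these had H3K4me3, beside 97.1% of all pairs.

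The 21 pairs without H3K4me3 were low in CpG for the most part. Their genes had a median CpG observed over expected of 0.255, against 0.861 at the genes of marked pairs. The nearest H3K4me3 peak lay a median of 10288 bp away, from 1046 bp at Ccnt1/4930415O20Rik to 271671 bp at 4931428L18Rik/Pih1d3, both named after their values were seen. At 8 of the 21, another annotated start of a gene of the pair lay over 1 Kb away and had a peak. Dgcr2/Tssk2 was such a pair, with a marked start of Dgcr2 6869 bp away, and so were Il11/Tmem190 (4718 bp) and Zfp558/Mbd3l1 (4709 bp). For these the annotated 5′ end that placed the gene in a pair was not where its H3K4me3 lay.

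The pairs with neither peak lay mostly at low CpG. Nmur1/Tex44, a neuromedin receptor and a testis gene, had CpG values of 0.188 and 0.210, and its nearest H3K4me3 lay 7546 bp away. Pecam1/Milr1, an adhesion protein of endothelium and a receptor of mast cells, had 0.253 and 0.354 and 25810 bp. Il11/Tmem190, of which Il11 encodes a cytokine, had 0.043 and 0.099. Gml/Gml2 had higher values, 0.601 and 0.551, and the nearest peak was 65267 bp away.

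The pairs with 1 of the marks were 10. Aspa/Spata22, an enzyme that cleaves N-acetylaspartate and a meiosis gene, had an ATAC-seq peak of 1361 bp across both starts, CpG values of 0.798 and 0.849 and no H3K4me3 within 47467 bp. In the class of CpG from 0.75 to 1 this set its genes among the 7 of 718 divergent genes that had none within 1 Kb. The ATAC-seq peaks of Ifit1bl2/Ifit1, Smyd1/Cd8b1 and Slc27a5/Trim28 were 299, 135 and 204 bp wide. Trim28 had 9 other annotated starts, 7 of them with an H3K4me3 peak, and the nearest of these lay 25038 bp away. H3K4me3 without an ATAC-seq peak over the span plus 1 Kb was found at Rnf151/Rps2, where it lay over neither annotated start, and at Stap2/Mpnd. At Stap2/Mpnd a peak of 687 bp covered both starts with a fold enrichment of 4.51.

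The letters of divergent promoters differed from those of other coding promoters. In the 300 bases around the 5′ end GC content had a median of 62.7% at divergent genes and 54.7% at the others. CCGGAAG, searched on both strands like all motifs here, was found at 27.6% of divergent genes (25.4 to 30.0) and 9.78% of others (9.37 to 10.2). Among genes with CpG of at least 0.75 it was found at 30.8% of 1025 and 19.1% of 5557, and it was found at 20.2% of genes with a noncoding partner and 20.6% of those with an overlapping coding partner. AAGATGGCG, the core of YY1, was found at 5.46% and 1.42%, and TCGCGAGA, a motif of CpG-rich promoters, at 5.11% and 1.07%. With CpG of at least 0.75 these were 5.46% and 3.20%, and 6.83% and 3.10%. TATAAA was less frequent at divergent genes, 4.14% against 13.4%, and 3.02% against 5.87% with CpG of at least 0.75.

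Of the other motifs 3 came closer with CpG of at least 0.75. GGGCGG, the core bound by SP and KLF factors, was found at 68.9% of divergent genes and 41.8% of others, but at 72.0% and 76.2% with CpG of at least 0.75, which turns the direction. GCATGCGC, bound by NRF1, gave 6.91% and 3.19%, then 8.00% and 7.20%. CACGTG, the E-box, gave 11.6% and 7.54%, then 12.3% and 12.1%. CCAAT did not come closer, with 43.6% and 38.2%, then 42.0% and 36.1%. CTACAATTC, part of the site of ZNF143, was rare, at 0.691% and 0.465%, then 0.878% and 0.288%, the last pair from 9 and 16 genes. The windows of paired genes overlap, so that a site between the starts can count for both genes.

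By chromosome, the share of pairs with H3K4me3 ran from 89.2% of 37 pairs on chromosome 13, which holds the histone pairs without the mark, to 100% on 8 chromosomes. The median fold enrichment ran from 31.1 on chromosome 7 to 40.6 on chromosome 16.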

How the data were processed

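F123 cells were profiled with H3K4me3 ChIP-seq and ATAC-seq, with 2 replicates each and 1 deposited list of peaks per assay. H3K4me3 reads were taken by the authors through the ENCODE pipeline for histone ChIP-seq at default settings; its aligner and threshold are not given in the sources used here. Its deposited columns hold a fold enrichment (a ratio over background), −log10 p and −log10 q values, a score and the summit. For ATAC-seq the authors used bowtie 1.1.2, samtools, a shift of read ends for the Tn5 cut, MACS2 2.1.1.20160309 and bedtools 2.27.1, and kept pooled peaks found in both replicates; that list holds positions alone. A pooled list hides how far replicates differ. Neither list has counts, so depth is unknown, no limit of detection can be given, and a missing peak may be a weak one.

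Positions were taken as mm10 from the labels, genes from GENCODE M21 and sequence from the RefSeq GRCm38.p6 genome, which is the same build. A gene's start was the outermost 5′ end of its record. An overlap of 1 bp counted, within 1 Kb of a start or span. The strongest peak was that with the highest fold enrichment, and reach was measured on the peak over a start. Shares have 95% Wilson intervals, a difference of shares has a Newcombe interval and medians have binomial order-statistic intervals; none is a test over samples. PLAC-seq and input samples were not analysed here.

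The members and gene lists were chosen with earlier results of these data known. Gene lists were drawn from gene names and the letters that names begin with, so the function of each listed gene was not checked. Pairs were named by rule: 17 common examples, the 5 highest in fold enrichment, the 5 widest and 5 narrowest, the 5 with the smallest gap, 5 on each side of the largest gap, the 5 closest with separate peaks, up to 10 per state without both marks and up to 4 per gene list. Of these, 2 examples and 1 pair near the largest gap, and the sequence of 1 pair, are not reported here. Overlaps and the pair finder were checked on simulated data and against bedtools 2.31.1. Values were computed in Python 3.11.15 with scipy 1.17.1, pandas 2.3.3 and numpy 2.4.6, and drawn with matplotlib 3.10.9. The alternatives are listed in the closing section.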

Additional observations from a re-analysis of the deposited data

How the results depend on the processing

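Of 132 values under the alternatives, 104 stayed inside the 95% interval of the reported value, 28 moved outside it and 0 changed sign. Only the differences could change sign, since shares, widths and fold enrichments are never negative. Some alternatives leave a result unchanged by construction, so the count of 104 includes values that could not move. A filter on ATAC-seq peaks leaves H3K4me3 values as they were. Weighting other promoters, or lengthening their window, leaves the values of pairs as they were. The median fold enrichment at pairs (35.5 to 36.2) and the share of pairs with an ATAC-seq peak (97.4% to 98.3%) stayed inside it throughout. Weighting other promoters to the CpG classes of divergent genes put their shares at 93.9% for H3K4me3 and 95.5% for ATAC-seq and the differences at 3.22 and 2.33 percentage points, in place of 33.0 and 27.6. Without predicted, receptor and histone genes the shares at other promoters were 73.7% and 79.1% and the differences 24.2 and 19.2 points. When the midpoint of a peak had to lie inside the region, H3K4me3 was found at 94.1% of pairs and 57.6% of other promoters (a difference of 35.0 points), ATAC-seq at 69.0% of other promoters and on the span at 38.8% of pairs, and the difference in median reach into the gene was -102 bp in place of -162.5 bp. When at least 50% of the peak had to lie inside, the values were 89.7%, 55.3%, 30.4 points, 69.0%, 6.54% and -100.0 bp, with 1 H3K4me3 peak over both starts at 80.8% of pairs and a median width of 2569 bp. The shares on the span fall by construction, since ATAC-seq peaks are mostly wider than the span. With flanks of 500 bp other promoters gave 63.2% and 67.7% and an ATAC-seq difference of 29.4 points; with the widest 50% of ATAC-seq peaks they gave 66.1% and 31.1 points; with a largest gap of 300 bp 1 H3K4me3 peak covered both starts at 90.2% of pairs. A −log10 q of 5 as the minimum for H3K4me3, a largest gap of 500 bp, the start of the most upstream coding transcript, a longer window at other promoters and 1 pair per locus moved no value outside its interval. The last, and all alternatives for the reach, were chosen after seeing the data. No paired analysis was possible because the 2 replicates of an assay share 1 list, and for the same reason no replicate could be left out. Both lists give no depth, and 1 annotated 5′ end stood for each gene, which at 8 of 21 unmarked pairs was not its marked start.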
